A study of Triticum turgidum subsp. durum with 36 samples.

Results

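The on-off loci of chromosome 7B are transcribed stretches of wheat genome sequence whose read count was near 0 in some flag leaves and many times higher in all others, with both states among plants of the same genotype and time point. They were chosen from the counts themselves. Each count was divided by the size factor of its library (the median ratio to a reference over all loci, a measure of depth), and the result is called the normalized count here. The median over libraries with at least 50 normalized counts was taken as the on level. A library was called off at 5% of this level or less and on at 25% or more, and no library was allowed in between. At least 3 libraries had to be on, at least 3 off and at least 3 at 50 or more, and at least 1 group of replicates had to hold both states. Of 5517 counted loci on 7B, 31 met this rule (0.562%), 16 on the long arm 7BL and 15 on the short arm 7BS. Since the rule used all of these values, the states and levels below are a description and were not tested. Tests between groups use the same values, and their limits are given with them.

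The 36 libraries came from flag leaves of tetraploid wheat, with 4 plants for each of 3 genotypes at heading (HD) and at 12 and 22 days after anthesis (DAA). The double mutant *gpc-A1/gpc-B2* carried premature stops in *GPC-A1* and *GPC-B2*, the *gpc-A1* mutant carried the stop in *GPC-A1* only, and the wild type (WT) carried neither. Plants of all 3 genotypes were siblings of the F2 generation (BC2F2) from induced mutants of the durum variety Kronos that had been crossed back to Kronos. Whether plants of a group also differed elsewhere in the genome was not tested. All 3 genotypes lacked a functional *GPC-B1*. *GPC-A2* was intact in all of them, so WT carries working copies of *GPC-A1*, *GPC-A2* and *GPC-B2*, and the double mutant is no null mutant of *GPC2*. Each library was made from 1 flag leaf of 1 greenhouse plant, so the P values below set differences between groups against the spread between plants. Whether the same plants were sampled at several times is not given in the sources used here.

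*GPC1* and *GPC2* encode NAC transcription factors. Wheat plants without functional *GPC1*, or with *GPC* genes lowered by RNA interference, senesce late and move less nitrogen, zinc and iron to the grain. The study found no significant effect of the *gpc-B2* mutation on these traits. Tetraploid wheat carries an A and a B genome, and most genes are present as related copies on both. Reads of the copies can be told apart only where their sequences differ, and only reads with a unique position were counted. The annotation used here was a shortened list that describes the most abundant loci. None of the 31 loci has a description in it, and whether the full annotation describes them was not examined. They are therefore named by arm, contig and position on the contig. The contigs are those of the Chinese Spring survey sequence to which the reads were mapped. Contigs are unordered pieces of an arm, and distances between loci on different contigs are not known.

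Total counts per library ranged from 13754124 to 48981831 (median 19377652), and no 2 replicates differed by as little as sampling noise. The 16 loci described as chlorophyll a-b binding proteins summed to between 70104 and 1194826 normalized counts per library. The 7 described as rubisco summed to between 75490 and 419942, and none of these loci was at 0 in any library. No description named grain storage proteins or roots, but only the most abundant loci had descriptions here. The genotype field of *gpc-A1* replicate 1 at HD reads wild type and its title *gpc-A1*. The title was used, and without this library the rule gave the same 31 loci. A premature stop need not change the read count of a gene, so the counts of the mutated genes were not used to check the labels. The study itself checked the genotype of every sample in the reads over the mutated positions, which were not analysed here.

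The 31 loci gave 1116 values, of which 718 were on and 398 off. Of the off values, 197 (49.5%) were libraries without a read. The highest off value was 4.54% of its on level and the lowest on value 26.3%. The gap between the limits is empty because the rule allows no library in it. On levels ranged from 52.9 to 939 normalized counts with a median of 124. The mean of the on libraries exceeded the mean of the off libraries by 35.4-fold to 563-fold (median 126-fold) in 25 loci. The other 6 loci had fewer than 3 reads over all of their off libraries, and against 3 reads they were at least 100.1-fold to at least 505-fold higher when on. Of the on values, 550 lay above 75% of the on level and 168 between 25% and 75%. Many of the lower on values lay in 4 libraries that are described with patterns A and B below. A leaf with fewer cells that transcribe a locus and a leaf with less RNA of that locus per cell cannot be told apart in such data.

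**Figure D1:**
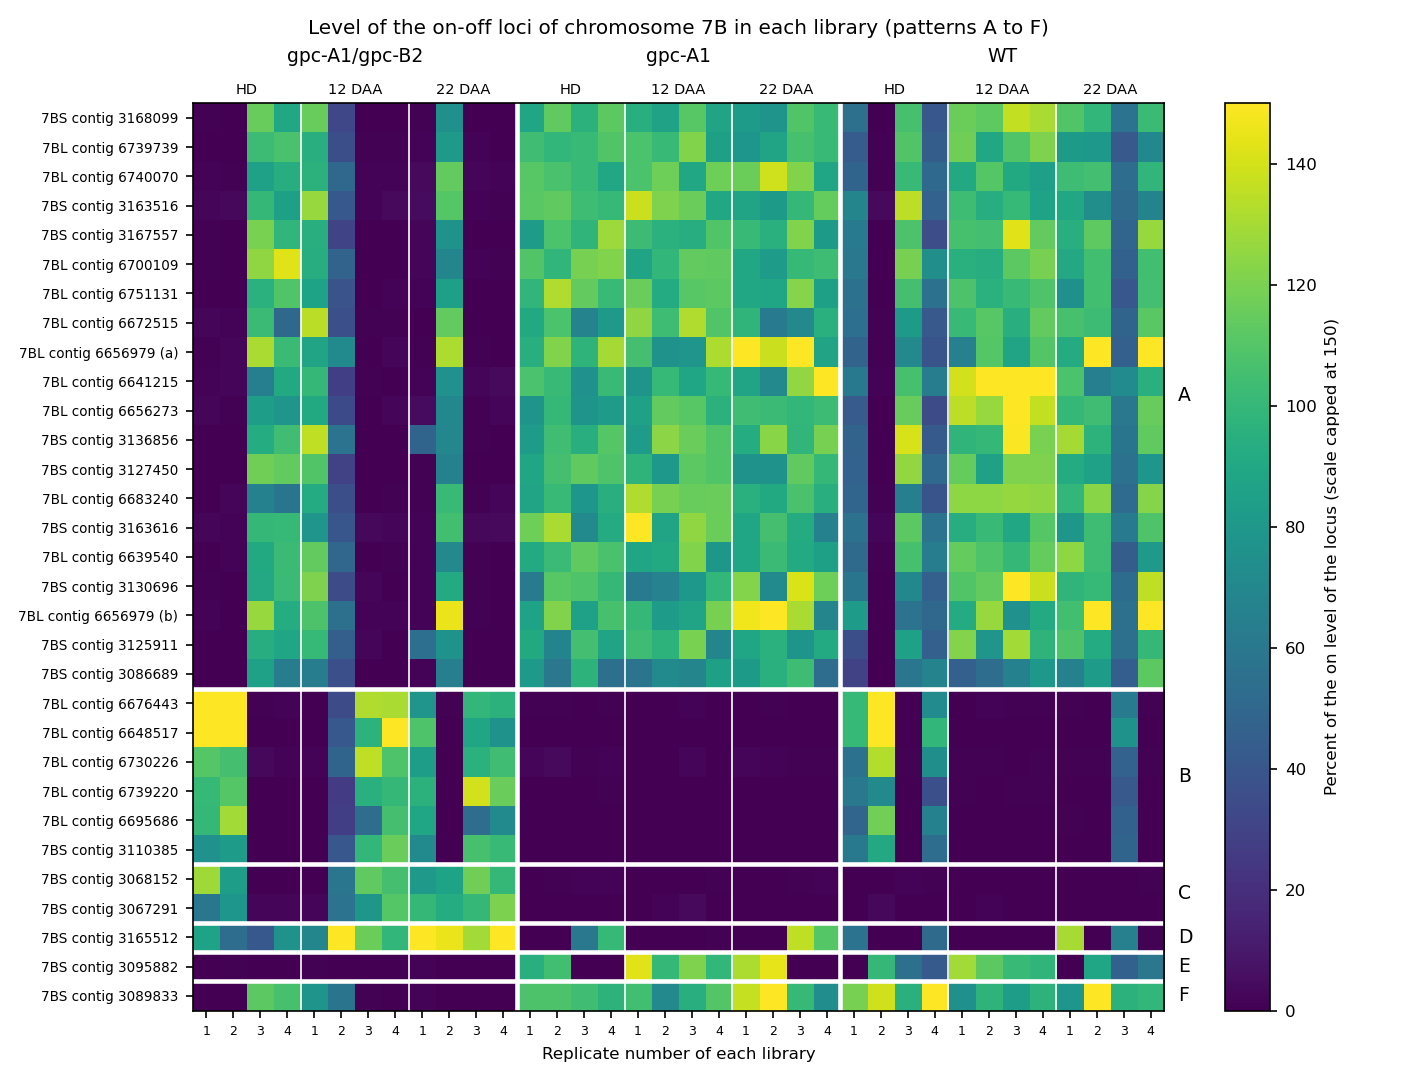
Level of each of the 31 loci (rows, grouped by pattern) in each of the 36 libraries (columns, by genotype, time point and replicate), as a percentage of the on level of the locus, with the colour scale capped at 150%. The 20 loci of pattern A are on in all 12 *gpc-A1* columns and in 11 of 12 WT columns, while the 6 loci of pattern B are off in all 12 *gpc-A1* columns.

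The loci fell into few patterns. Loci whose states were the same in at least 35 of the 36 libraries were joined, which gave 6 patterns, named A to F here. Pattern A held 20 loci, B held 6, C held 2, and D, E and F held 1 each. All 6 loci of B and both loci of C had identical states. Within A, 18 loci had the same state in all 36 libraries and 2 differed from them in 1 library. The number of the 31 loci that were on ranged from 9 to 30 in the 12 *gpc-A1/gpc-B2* leaves, was 22 in each of the 12 *gpc-A1* leaves, and ranged from 8 to 29 in the 12 WT leaves. The equal number in *gpc-A1* does not mean equal states, since D and E replaced each other there.

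Pattern A, with 11 loci on 7BL and 9 on 7BS, was on in 5 of 12 *gpc-A1/gpc-B2* leaves (HD replicates 3 and 4, 12 DAA replicates 1 and 2, 22 DAA replicate 2), in 12 of 12 *gpc-A1* leaves and in 11 of 12 WT leaves, where only HD replicate 2 was off. Its on levels ranged from 52.9 to 939 normalized counts (median 127). The highest locus was 7BS-3168099:3635-8404, with an on level of 939. In replicates 1 to 4 of *gpc-A1/gpc-B2* it had 9.93, 2.85, 1081 and 841 normalized counts at HD, 1080, 298, 4.99 and 0 at 12 DAA, and 7.23, 705, 4.27 and 4.38 at 22 DAA. In *gpc-A1* it had 832, 1063, 904 and 1054 at HD, 885, 810, 1040 and 821 at 12 DAA, and 773, 730, 1027 and 947 at 22 DAA. In WT it had 520, 4.93, 1001 and 385 at HD, 1093, 1058, 1281 and 1231 at 12 DAA, and 1024, 931, 537 and 962 at 22 DAA. The *gpc-A1* leaves were all on. They overlapped with the WT leaves at HD and 22 DAA, and at 12 DAA all 4 lay below the lowest WT leaf. Each *gpc-A1/gpc-B2* group held leaves at or below 9.93 and leaves at or above 298.

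Another 5 loci of pattern A were among the 8 highest of the 31. 7BL-6739739:174-19561, the longest of all at 19388 bp, had 3.31, 2.85, 750 and 779 normalized counts in *gpc-A1/gpc-B2* at HD, 685, 262, 4.99 and 4.43 at 12 DAA, and 10.4, 592, 9.39 and 2.63 at 22 DAA. It had between 576 and 885 (median 740) in the 12 *gpc-A1* leaves, 318, 4.93, 797 and 323 in WT at HD, and between 304 and 882 (median 625) in the 8 later WT leaves. Its off leaves were the same as those of the highest locus.

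7BL-6740070:1-4558 had the highest mean over its off leaves of the loci on 7BL, at 12.4 normalized counts. It had 12.1, 6.66, 616 and 667 normalized counts in *gpc-A1/gpc-B2* at HD, 689, 363, 8.72 and 9.96 at 12 DAA, and 28.1, 814, 16.2 and 11.4 at 22 DAA. It had between 636 and 998 (median 782) in *gpc-A1*, 347, 5.92, 724 and 369 in WT at HD, and between 383 and 791 (median 681) in the later WT leaves. On 7BS, 7BS-3163516:4298-7238 had an off mean of 15.4 normalized counts and the smallest on-to-off fold of the 31, at 35.4. It had 13.2, 18.1, 573 and 490 normalized counts in *gpc-A1/gpc-B2* at HD, 726, 236, 9.97 and 21.03 at 12 DAA, and 24.1, 632, 7.68 and 6.13 at 22 DAA. It had between 469 and 791 (median 616) in *gpc-A1*, 390, 22.7, 772 and 271 in WT at HD, and between 298 and 593 (median 506) in the later WT leaves.

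7BS-3167557:2849-5622 had 2.21, 0.951, 302 and 249 normalized counts in *gpc-A1/gpc-B2* at HD, 240, 78.0, 1.25 and 0 at 12 DAA, and 4.82, 194, 0 and 0.875 at 22 DAA. It had between 206 and 324 (median 252) in *gpc-A1*, 157, 0, 274 and 89.8 in WT at HD, and between 124 and 362 (median 277) in the later WT leaves. Its pattern followed that of the highest locus most closely of all counted loci on any arm. 7BL-6700109:11208-13806 had 2.21, 0.951, 281 and 320 normalized counts in *gpc-A1/gpc-B2* at HD, 211, 108, 1.25 and 1.11 at 12 DAA, and 4.02, 155, 3.42 and 1.75 at 22 DAA. It had between 184 and 273 (median 229) in *gpc-A1*, 135, 0.986, 268 and 167 in WT at HD, and between 105 and 268 (median 224) in the later WT leaves. In all 6 of these loci the *gpc-A1/gpc-B2* leaf 2 at 12 DAA stood below the other on leaf of its group, and WT replicate 3 stood lowest at 22 DAA.

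The 2 loci of pattern A with an extra on library, and so the most on libraries of the 31 (29 each), were 7BS-3125911:1-2093 and 7BS-3136856:3786-6330, and the extra library was *gpc-A1/gpc-B2* replicate 1 at 22 DAA in both. 7BS-3125911:1-2093 had 0, 0, 52.0 and 49.4 normalized counts in *gpc-A1/gpc-B2* at HD, 55.8, 25.4, 1.25 and 0 at 12 DAA, and 30.5, 43.0, 0 and 0 at 22 DAA. It had between 37.6 and 66.7 (median 50.8) in *gpc-A1*, 20.02, 0, 48.0 and 25.7 in WT at HD, and between 31.0 and 71.9 (median 55.0) in the later WT leaves. Its on values were low, and 15 of them reached 50. 7BS-3136856:3786-6330 had 0, 0, 110 and 123 normalized counts in *gpc-A1/gpc-B2* at HD, 161, 67.8, 0 and 0 at 12 DAA, and 57.1, 82.2, 0.854 and 0 at 22 DAA. It had between 97.4 and 147 (median 126) in *gpc-A1*, 56.7, 0, 166 and 50.3 in WT at HD, and between 69.2 and 176 (median 126) in the later WT leaves. The lowest on level of the 31 also belonged to pattern A, at 52.9 normalized counts for 7BS-3086689:10016-10988.

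The remaining 11 loci of pattern A were 7BL-6639540:803-3703, 7BL-6641215:5434-7406, 7BL-6656273:3431-6422, 7BL-6656979:32-453, 7BL-6656979:484-1753, 7BL-6672515:19-494, 7BL-6683240:2317-3818, 7BL-6751131:6059-10259, 7BS-3127450:22-1169, 7BS-3130696:1-1510 and 7BS-3163616:734-1859. Their on levels ranged from 91.7 normalized counts at 7BL-6656979:32-453 to 218 at 7BL-6751131:6059-10259. All 11 had the states of the highest locus in all 36 libraries. 7BL-6656979 was the only contig with 2 of the 31 loci.

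Pattern B, with 5 loci on 7BL and 1 on 7BS, was on in 8 of 12 *gpc-A1/gpc-B2* leaves (HD replicates 1 and 2, 12 DAA replicates 2, 3 and 4, 22 DAA replicates 1, 3 and 4), in 0 of 12 *gpc-A1* leaves and in 4 of 12 WT leaves (HD replicates 1, 2 and 4, 22 DAA replicate 3). The highest locus was 7BL-6676443:1973-7198, with an on level of 601 normalized counts. In *gpc-A1/gpc-B2* it had 1046, 912, 4.43 and 10.5 at HD, 2.33, 205, 794 and 787 at 12 DAA, and 469, 5.38, 599 and 579 at 22 DAA. In *gpc-A1* it had 5.06, 5.08, 2.50 and 4.53 at HD, 2.44, 2.62, 8.47 and 0.984 at 12 DAA, and 1.92, 4.68, 2.10 and 3.40 at 22 DAA. In WT it had 604, 1363, 2.82 and 433 at HD, 2.92, 7.11, 4.50 and 4.93 at 12 DAA, and 3.59, 1.68, 371 and 3.65 at 22 DAA. Every leaf had at least 1 read of this locus.

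7BL-6648517:1-2356 had 844, 738, 0 and 1.05 normalized counts in *gpc-A1/gpc-B2* at HD, 0, 168, 396 and 628 at 12 DAA, and 444, 0, 360 and 313 at 22 DAA. It had between 0 and 2.03 (median 1.26) in the 12 *gpc-A1* leaves, 410, 884, 0 and 407 in WT at HD, 0, 0.889, 1.12 and 1.52 at 12 DAA, and 1.79, 0.841, 314 and 1.83 at 22 DAA. The WT leaf that was on at 22 DAA was replicate 3, as for the whole pattern. 7BL-6730226:8119-11754 had 155, 147, 4.43 and 2.10 normalized counts in *gpc-A1/gpc-B2* at HD, 2.33, 67.8, 189 and 152 at 12 DAA, and 117, 0, 134 and 145 at 22 DAA. It had between 0 and 5.08 (median 1.56) in *gpc-A1*, 79.0, 185, 1.41 and 105 in WT at HD, 0.974, 0.889, 0 and 1.14 at 12 DAA, and 0.897, 0.841, 66.1 and 0.913 at 22 DAA.

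7BL-6739220:1-1157 had a 563-fold difference between on and off means, the largest of the 25 folds that are not lower bounds. It had 114, 125, 0 and 0 normalized counts in *gpc-A1/gpc-B2* at HD, 0, 29.7, 107 and 113 at 12 DAA, and 109, 0, 158 and 130 at 22 DAA. It had 0 in 11 of the 12 *gpc-A1* leaves and 1.13 in the other, against 67.8, 80.8, 0 and 41.5 in WT at HD, 0.974, 0, 1.12 and 0.759 at 12 DAA, and 0, 0, 47.5 and 0 at 22 DAA. The last 2 loci of the pattern were 7BL-6695686:4195-6409 and 7BS-3110385:1-2124, with on levels of 79.5 and 64.2 normalized counts. 7BL-6695686:4195-6409 had 1 read in all of its 24 off leaves together, and 7BS-3110385:1-2124 had 0 reads in its 24 off leaves, so neither had a read in any *gpc-A1* leaf.

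Patterns A and B were nearly opposed. Their states differed in 32 of the 36 libraries, and no library had both off. The 4 libraries with both on were *gpc-A1/gpc-B2* replicate 2 at 12 DAA, WT replicates 1 and 4 at HD, and WT replicate 3 at 22 DAA. In these 4, taken in that order, the median of the 20 loci of A stood at 37.5%, 53.3%, 46.7% and 52.9% of the on level, and the median of the 6 loci of B at 37.5%, 60.4%, 68.9% and 47.8%. In the 24 libraries with A alone on, its median ranged from 79.2% to 114%, and in the 8 libraries with B alone on, its median ranged from 86.5% to 125%. Of the single values of A, 79 of 80 (98.8%) lay below 75% of the on level in the libraries with both on, against 45 of 480 (9.38%) in those with A alone on. Of the values of B, 20 of 24 (83.3%) lay below 75% where both were on, against 5 of 48 (10.4%) where B alone was on. The loci of a pattern share their libraries, so these values are not independent, and the difference was not tested. These libraries are not set apart by the rule, and with all 4 left out, which was chosen after seeing them, the rule gave 36 loci that included all 31.

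**Figure D2:**
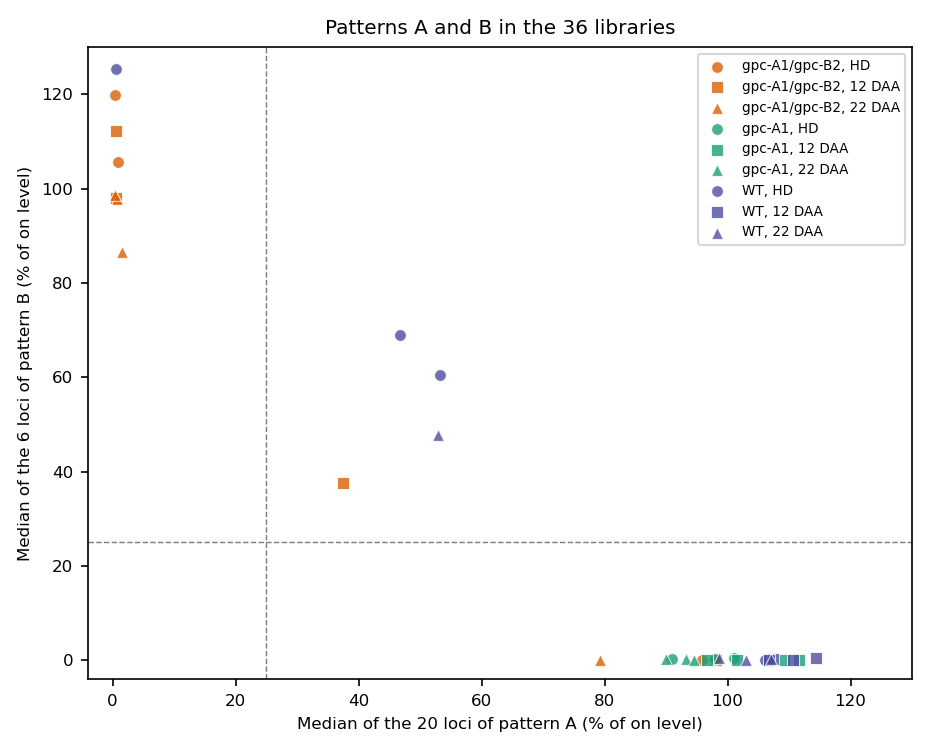
Median level of the 20 loci of pattern A (horizontal axis) and of the 6 loci of pattern B (vertical axis) in each of the 36 libraries, as a percentage of the on level, with colours for genotypes and dashed lines at 25%. Of the points, 24 lie along the horizontal axis and 8 along the vertical axis, and the 4 libraries with both patterns on lie between, at 37.5% to 53.3% for A and 37.5% to 68.9% for B.

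Patterns C and F, all on 7BS, formed a second pair of this kind. C was on in 9 of 12 *gpc-A1/gpc-B2* leaves, 0 of 12 *gpc-A1* leaves and 0 of 12 WT leaves. Its loci, with the fewest on libraries of the 31, were 7BS-3067291:1451-4605 and 7BS-3068152:17520-20948. 7BS-3067291:1451-4605 had 34.2, 45.7, 1.11 and 1.05 normalized counts in *gpc-A1/gpc-B2* at HD, 1.16, 33.1, 46.1 and 64.2 at 12 DAA, and 57.9, 53.8, 58.1 and 70.0 at 22 DAA. It had at most 2.12 in any *gpc-A1* leaf and at most 1.97 in any WT leaf. 7BS-3068152:17520-20948 had 117, 76.1, 0 and 0 normalized counts in *gpc-A1/gpc-B2* at HD, 0, 53.4, 103 and 96.3 at 12 DAA, and 73.1, 79.1, 107 and 91.0 at 22 DAA. It had at most 1.25 in any *gpc-A1* leaf and at most 1.41 in any WT leaf.

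F, the single locus 7BS-3089833:679-3698, was on in 4 of 12 *gpc-A1/gpc-B2* leaves and in all 24 *gpc-A1* and WT leaves. It had 0, 0, 135 and 128 normalized counts in *gpc-A1/gpc-B2* at HD, 93.1, 69.5, 1.25 and 0 at 12 DAA, and 1.61, 0, 0 and 0 at 22 DAA. It had between 84.7 and 190 in *gpc-A1* and between 90.6 and 209 in WT. C and F were on together in 1 library, *gpc-A1/gpc-B2* replicate 2 at 12 DAA, at 57.8% of the on level for both the median of C and F, and no library had both off. F had the state of A in 34 libraries, and C that of B in 31.

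Patterns D and E, 1 locus of 7BS each, varied among *gpc-A1* and WT leaves and not among *gpc-A1/gpc-B2* leaves. D, 7BS-3165512:1043-2895, was on in all 12 *gpc-A1/gpc-B2* leaves, with 178, 109, 84.1 and 157 normalized counts at HD, 141, 444, 238 and 204 at 12 DAA, and 362, 298, 265 and 489 at 22 DAA. In *gpc-A1* it had 0, 1.02, 124 and 206 at HD, 0, 0, 1.06 and 1.97 at 12 DAA, and 0, 0, 278 and 227 at 22 DAA. In WT it had 117, 0.986, 0 and 107 at HD, 0, 0.889, 0 and 1.14 at 12 DAA, and 267, 0, 134 and 1.83 at 22 DAA. At 12 DAA *gpc-A1/gpc-B2* did not overlap with the other groups, and at HD and 22 DAA each *gpc-A1* and WT group held 2 plants in each state.

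E, 7BS-3095882:1879-2895, was off in all 12 *gpc-A1/gpc-B2* leaves, with 0, 1.90, 0 and 0 normalized counts at HD, 1.16, 0.848, 0 and 0 at 12 DAA, and 2.41, 0, 0 and 0 at 22 DAA. In *gpc-A1* it had 172, 192, 0 and 0 at HD, 263, 183, 222 and 182 at 12 DAA, and 241, 265, 0 and 0 at 22 DAA. In WT it had 0, 183, 102 and 78.0 at HD, 237, 206, 187 and 180 at 12 DAA, and 0, 162, 85.7 and 110 at 22 DAA. D and E were on together in WT replicate 4 at HD and WT replicate 3 at 22 DAA, where D stood at 52.0% and 65.5% of its on level and E at 42.5% and 46.7%, and no library had both off.

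**Figure D3:**
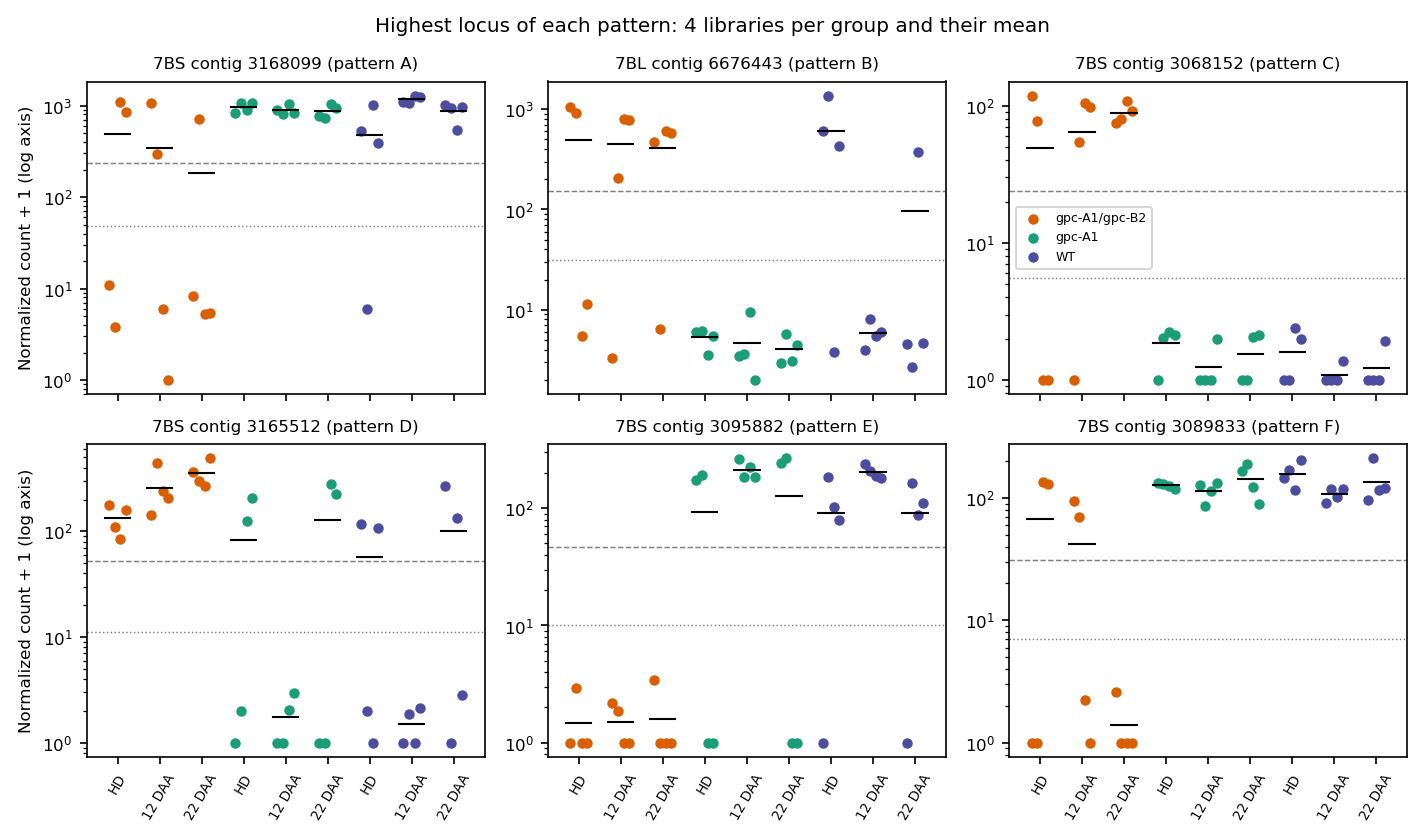
Normalized count + 1 on a log axis of the highest locus of each pattern, by genotype and time point, with 1 point for each of the 4 plants of a group and a bar at their mean, a dashed line at 25% and a dotted line at 5% of the on level. Every plant lies below the dotted or above the dashed line, as the rule requires, and both occur within groups, such as *gpc-A1/gpc-B2* at HD for the loci of A, B, C and F. On values differed within groups, as in *gpc-A1/gpc-B2* at 12 DAA, where the on leaves had 1080 and 298 for the locus of A. The leaf with 298 was replicate 2, one of the 4 libraries with A and B both on.

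The replicate number marks libraries that shared sequencing lanes, and it is not known to mark a plant. Of the 12 sets of 3 libraries with the same genotype and number at the 3 times, the state was the same at all times in 7 for A, 4 for B, 9 for C, 7 for D, 9 for E and 8 for F. In *gpc-A1*, all 4 sets were uniform for A, B, C and F, as all 12 leaves there had the same state. The same holds for C and F in WT and for D and E in *gpc-A1/gpc-B2*. Elsewhere the states mostly varied. In *gpc-A1/gpc-B2*, 4 sets were mixed for each of A, B and F, and 3 for C. In WT, 4 were mixed for B, 3 for D and 1 for each of A and E. In *gpc-A1*, 2 were mixed for each of D and E.

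All 31 loci were among the 75375 tested for differential expression (DE), by the rule of 4 tests described in the methods: edgeR and DESeq2 at an adjusted P of 0.01, a rank test and a test of means. Log2 fold changes and P values are those of edgeR, with Benjamini-Hochberg adjustment over all loci tested. The selection asked for both states within a group, and such a group has a large spread by construction. In *gpc-A1/gpc-B2* against WT, 5 of the 31 loci were DE at 1 or more time points, where 1.8% of all loci tested were. They were both loci of C and those of D, E and F, each called at a time point where each group compared held a single state. Where these states are opposite, the rule forces a large fold without overlap. The counts of calls here and below therefore cannot be read as an excess over the share of all loci. In *gpc-A1/gpc-B2* against *gpc-A1*, the same 5 loci were DE, where 0.216% of all loci were. The comparisons share the *gpc-A1/gpc-B2* libraries, so one is no independent support for the other.

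At 12 DAA, 2 loci were DE in *gpc-A1/gpc-B2* against WT, where 1.69% of all loci were, and 2 against *gpc-A1*, where 0.203% were. 7BS-3165512:1043-2895 averaged 257 ± 131 normalized counts in *gpc-A1/gpc-B2*, 0.757 ± 0.949 in *gpc-A1* and 0.507 ± 0.594 in WT (SD, n = 4 each). The log2 fold change was 8.34 over WT (SE 0.56, edgeR adjusted P = 5.24e-06) and 8.17 over *gpc-A1* (SE 0.60, edgeR adjusted P = 3.50e-05). The 4 WT leaves held 4 reads together. With these reads pooled over the summed size factors of the 4 leaves, in place of the mean of the leaves, the ratio over WT was 364 with a 95% counting interval of 142 to 1337, and the 4 *gpc-A1* leaves held 3 reads. 7BS-3095882:1879-2895 averaged 0.503 ± 0.595 normalized counts in *gpc-A1/gpc-B2*, 213 ± 38.3 in *gpc-A1* and 202 ± 25.5 in WT (SD, n = 4 each). The log2 fold change was -8.30 over WT (SE 0.35, edgeR adjusted P = 1.11e-07) and -8.32 over *gpc-A1* (SE 0.39, edgeR adjusted P = 1.45e-06). The 4 *gpc-A1/gpc-B2* leaves held 2 reads, and with these pooled in the same way WT was 379-fold higher, with a 95% counting interval of 105 to 3128. In both loci *gpc-A1/gpc-B2* did not overlap with the other groups, as the rule forces where each group holds a single state.

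At 22 DAA, 3 loci were DE in *gpc-A1/gpc-B2* against WT, where 0.142% of all loci were, and 3 against *gpc-A1*, where 0.0119% were. 7BS-3067291:1451-4605 averaged 59.9 ± 7.01 normalized counts in *gpc-A1/gpc-B2* (SD, n = 4) and had 0 reads in all *gpc-A1* and WT leaves. Against a floor of 3 reads over the 4 leaves it was at least 78.8-fold higher than in *gpc-A1* and at least 87.2-fold higher than in WT, with edgeR adjusted P values of 0.00466 against *gpc-A1* and 0.00116 against WT. 7BS-3068152:17520-20948 averaged 87.5 ± 14.8 normalized counts in *gpc-A1/gpc-B2*, 0.546 ± 0.632 in *gpc-A1* and 0.228 ± 0.457 in WT (SD, n = 4 each). Its log2 fold change was 8.03 over WT (SE 0.48, edgeR adjusted P = 0.000228) and 7.15 over *gpc-A1* (SE 0.49, edgeR adjusted P = 0.00191), with 1 read in WT and 2 in *gpc-A1*. 7BS-3089833:679-3698 averaged 0.402 ± 0.804 normalized counts in *gpc-A1/gpc-B2*, 141 ± 45.1 in *gpc-A1* and 135 ± 50.8 in WT (SD, n = 4 each). Its log2 fold change was -8.01 over WT (SE 0.57, edgeR adjusted P = 0.000446) and -8.05 over *gpc-A1* (SE 0.60, edgeR adjusted P = 0.00244).

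These counts depended on which replicates were included. Each replicate number was left out in turn, which takes 1 leaf from both groups. At 12 DAA, 7BS-3165512:1043-2895 was no longer DE in either comparison without number 1, 3 or 4, nor with unequal variances in the test of means, and 7BS-3095882:1879-2895 stayed DE whichever number was left out. At 22 DAA without number 2, 9 of the 31 loci were DE against WT, of 17 loci in all, and 24 against *gpc-A1*, of 42. *gpc-A1/gpc-B2* replicate 2 was the only leaf of its group at 22 DAA with A on and B off. No locus of the 31 was DE against *gpc-A1* at this time without number 1, 3 or 4. Against WT, 4 were DE without number 1, 2 without number 3 and 0 without number 4. With unequal variances in the test of means, 7BS-3089833:679-3698 was no longer DE against WT at 22 DAA. With the replicate number as a block, 7BS-3067291:1451-4605 was no longer DE at 22 DAA (edgeR adjusted P = 0.0158 against WT and 0.0862 against *gpc-A1*). In a single fit of all groups, none of the 5 was DE against *gpc-A1*, with edgeR adjusted P between 0.0145 and 0.109. At HD, 0 of the 31 loci were DE in *gpc-A1/gpc-B2* against WT, where 0.00133% of all loci were, and 0 against *gpc-A1*, where 0.00133% were. Without adjustment, edgeR P was below 0.05 at HD in 3 of the 31 against WT, where it was in 4.94% of all loci, and in 9 against *gpc-A1*, where it was in 5.64%. DESeq2 alone called none of the 31 against WT (0.061% of all loci) and 1 against *gpc-A1* (0.0517%) at this time.

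Loci of patterns A and B were among those gained at 22 DAA without number 2. With all replicates, no locus of A or B was DE by this rule between genotypes. Over the 3 time points, in *gpc-A1/gpc-B2* against WT, edgeR alone called 9 of the 31, where it called 2.15% of all loci, and DESeq2 alone 9, where it called 8.04%. Against *gpc-A1*, edgeR alone called 5 (0.227% of all loci) and DESeq2 alone 8 (0.617%). For A, the log2 fold change of *gpc-A1/gpc-B2* over WT had a median of -0.03 at HD over the 20 loci, -1.60 at 12 DAA and -1.89 at 22 DAA, with all 20 below 0 at both later times. Over all loci tested, the median was 0.01 at both HD and 12 DAA and -0.01 at 22 DAA. Among the loci of A, the lowest edgeR adjusted P was 0.063 at 12 DAA and 0.274 at 22 DAA. For B, the log2 fold change of *gpc-A1/gpc-B2* over WT had a median over the 6 loci of -0.19 at HD. It was 7.36 at 12 DAA and 2.42 at 22 DAA, with all 6 above 0 after HD. At 12 DAA edgeR alone called 4 of the 6, with adjusted P between 0.00381 and 0.0203 over the 6, and at 22 DAA the lowest was 0.308. Over *gpc-A1*, the median for B lay between 7.34 at HD and 8.12 at 22 DAA (7.94 at 12 DAA) with all 6 above 0 each time, and the lowest edgeR adjusted P was 0.0431, at 12 DAA. These medians depend on the prior count of edgeR, since some groups had no read of some loci. In *gpc-A1* against WT, 0 of the 31 loci were DE at any time point, where 0.454% of all loci were. Without adjustment, edgeR gave P below 0.05 for 8 of the 31 at HD (7.35% of all loci), 4 at 12 DAA (14.4%) and 2 at 22 DAA (5.34%). DESeq2 alone called 3, where it called 1.79% of all loci, and edgeR alone 0 (0.508%). With the replicate number as a block, 1 locus of A, 7BL-6641215:5434-7406, was called at 12 DAA, with a log2 fold change of -0.91 (edgeR adjusted P = 0.00663), and it was also called without the filter (edgeR adjusted P = 0.00973). At HD, where 1 WT leaf had A off and 3 had B on, the log2 fold change of *gpc-A1* over WT had a median of 1.02 over the 20 loci of A, all of them above 0, with a lowest edgeR adjusted P of 0.614, and one of -7.49 over the 6 loci of B, all of them below 0, with a lowest of 0.364.

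Between time points in WT, 0 of the 31 loci were DE, where 5.07% of all loci were DE in 1 or more of the 3 comparisons. By comparison, 2.22% of all loci were DE between HD and 12 DAA, 3.66% between HD and 22 DAA and 0.674% between 12 and 22 DAA. Without adjustment, edgeR gave P below 0.05 for 15 of the 31 between HD and 12 DAA (20.7% of all loci), 1 between HD and 22 DAA (29.3%) and 11 between 12 and 22 DAA (25.9%). With adjustment, edgeR alone called 4, all of pattern B between HD and 12 DAA, where it called 5.98% of all loci, and DESeq2 alone 6 (15.4%). B was on in 3 WT leaves at HD, 0 at 12 DAA and 1 at 22 DAA.

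An edgeR fit of all 36 libraries, with contrasts averaged over the time points, used 12 leaves a genotype. The leaves were treated as independent, although whether the same plants were sampled at several times is not given. This fit called 9 of the 31 loci between genotypes at an adjusted P of 0.01, where 5.29% of all loci were called. In *gpc-A1/gpc-B2* against WT, 6 were called, where 5.16% of all loci were. They were the 5 loci above and 7BL-6730226:8119-11754 of pattern B, with a log2 fold change of 3.0 and an edgeR adjusted P of 0.00804 (0.0111 with the replicate number as a block). This call of 7BL-6730226:8119-11754 was lost without replicate number 1, 2 or 4, and that of 7BS-3165512:1043-2895 without 2, 3 or 4. In *gpc-A1/gpc-B2* against *gpc-A1*, 8 were called, where 0.23% of all loci were, namely both loci of C, those of E and F, and 4 loci of B: 7BL-6648517:1-2356, 7BL-6676443:1973-7198, 7BL-6730226:8119-11754 and 7BL-6739220:1-1157. Their log2 fold changes were 7.79, 6.91, 5.69 and 8.63, in that order, and that of 7BL-6739220:1-1157 depends on the prior count of edgeR and is no bound, since *gpc-A1* had no read of it at 12 and 22 DAA. Without replicate numbers 1, 2, 3 and 4, in that order, 2, 1, 6 and 3 of the 31 were called over *gpc-A1* in place of 8. In *gpc-A1* against WT, 0 were called by edgeR, where 0.531% of all loci were, with 2 of the 31 at P below 0.05 without adjustment (14.1% of all loci) and 2 called by DESeq2 (1.55%). No locus of A was called in these contrasts with all libraries. For A, the median log2 fold change was -1.17 over WT (all 20 below 0, lowest edgeR adjusted P 0.0417) and -1.54 over *gpc-A1* (all 20 below 0, lowest 0.163). Without replicate number 2, 7BL-6641215:5434-7406 (edgeR adjusted P = 0.00745) and 7BL-6683240:2317-3818 (edgeR adjusted P = 0.00893) of pattern A were called in *gpc-A1/gpc-B2* against WT.

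Averaged over genotypes, edgeR called 2 of the 31 loci between time points, where 35.3% of all loci were called. The locus of F had a log2 fold change of -2.35 at 22 DAA over HD (edgeR adjusted P = 0.00252), where 34.0% of all loci were called. It was on in all WT and *gpc-A1* leaves at both times. In *gpc-A1/gpc-B2* it was on in 2 of 4 leaves at HD and in 0 of 4 at 22 DAA. The locus of D had 4.84 at 22 DAA over 12 DAA (edgeR adjusted P = 0.00136), where 10.3% of all loci were called. It was on in all *gpc-A1/gpc-B2* leaves at both times. In each of *gpc-A1* and WT it was on in 0 of 4 leaves at 12 DAA and in 2 of 4 at 22 DAA. The call of F was lost without replicate number 3 or 4, and that of D without 1, 3 or 4. At 12 DAA over HD, 0 were called by edgeR, where 10.2% of all loci were, with 2 of the 31 at P below 0.05 without adjustment (30.7% of all loci) and 1 called by DESeq2 (12.6%).

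The 31 loci lay on 30 contigs, and 22 of them were the only locus listed on their contig. The contigs held 6 other counted loci, of which 5 reached 50 normalized counts in no library. The correlation of log2(normalized count + 1) with the on-off locus of the same contig, over the 36 libraries, ranged from 0.80 at 7BL-6700109:10459-10897 to 0.98 at 7BS-3136856:2247-3692. 7BS-3136856:2247-3692 had between 1.11 and 76.4 normalized counts and reached 50 in 16 libraries, and it failed the rule because 2 libraries lay between the limits. Spans of the 31 loci ranged from 422 to 19388 bp, with a median of 2356 bp.

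The limits of the rule were close to some values. Among the 31, the values nearest to a limit were 4.54% at 7BL-6656273:3431-6422 and 4.21% at 7BS-3163516:4298-7238, both in *gpc-A1/gpc-B2* replicate 1 at 22 DAA, and 4.03% at 7BL-6641215:5434-7406 in replicate 4 of that group. Of the loci on 7B that failed by 1 library only, the nearest were 7BS-3166052:6281-9123 with 5.28% in *gpc-A1/gpc-B2* replicate 1 at 12 DAA, 7BS-3122200:1-5402 with 6.49% in replicate 3 at 22 DAA, and 7BL-6740907:284-689 with 22.3% in replicate 2 at 12 DAA.

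More loci followed the large patterns than met the rule. With 7BS-3168099:3635-8404, the highest of A, 48 loci of 7B (29 of them not among the 31) and 9 of other arms had a correlation of at least 0.9 over the 36 libraries. With 7BL-6676443:1973-7198, the highest of B, 22 loci of 7B (17 not among the 31) and 5 of other arms did. For the small patterns, the highest locus of C had 4 such loci on 7B and 3 on other arms, and that of F 7 and 0. The locus of D had 0 on 7B and 17 on other arms, and that of E 3 and 16. The 5 loci most like 7BS-3168099:3635-8404 by this measure were all of pattern A: 7BS-3167557:2849-5622 (0.990), 7BS-3127450:22-1169 (0.989), 7BL-6700109:11208-13806 (0.988), 7BS-3130696:1-1510 (0.985) and 7BL-6739739:174-19561 (0.985). Those most like 7BL-6676443:1973-7198 were 7BS-3110385:1-2124 (0.987), 7BL-6695686:4195-6409 (0.985), 7BL-6739220:1-1157 (0.981) and 7BL-6648517:1-2356 (0.981) of pattern B, and 5AL-2772583:39-1362 (0.982), a locus assigned to another chromosome that reached at most 46.4 normalized counts. These correlations share the 36 libraries and rest on the split between on and off leaves.

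Applied to all 80168 counted loci, the rule gave 86, of which the 31 on 7B were 36.05%. On the other arms 55 of 74651 loci met it (0.0737%). The share of counted loci was 0.692% on 7BS and 0.478% on 7BL, against 0.636% on 1BL (21 loci), 0.328% on 1AS (6 loci) and at most 0.14% on any other arm, with none on 8 arms. Of these 55, 3 had the states of pattern A in at least 35 libraries: 1BS-3422710:938-4740 and 3B-10431068:3511-4183 in 36, and 1BS-3433491:806-1711 in 35. The same 1BS-3433491 locus had the states of F in 35. None had those of B or C, for which the closest agreed in 32 and 29 libraries. For D, 5 did, on 1BL, 3B, 4AL and 6BS, led by 4AL-7156532:9196-9789 in 36, and 7 had the opposite state in at least 35. For E, 7 loci did, all on 1BL and all in 36 libraries, and 2 had the opposite state in at least 35.

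**Figure D4:**
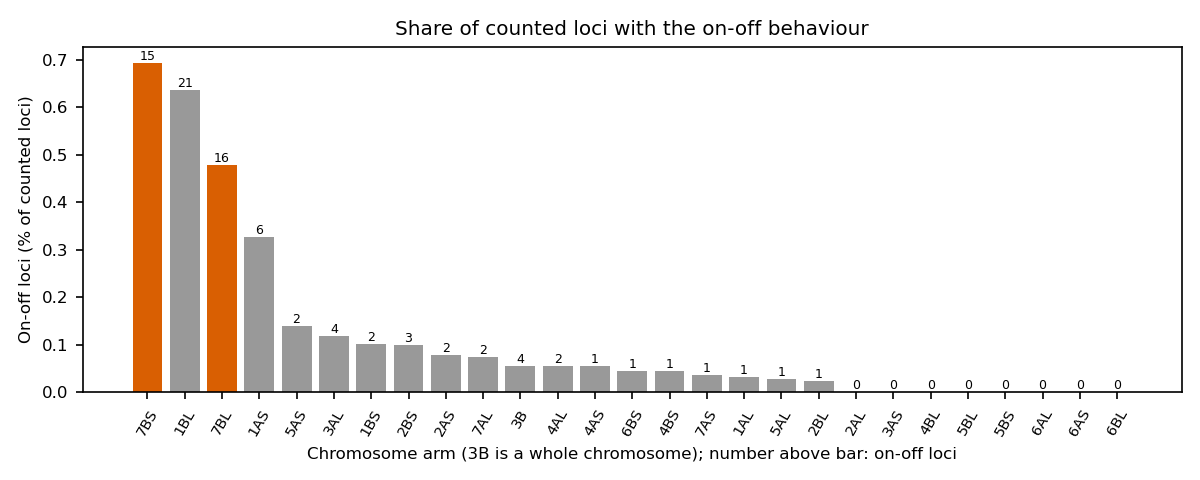
Percentage of counted loci that met the on-off rule on each chromosome arm (bars from 0), with the number of such loci above each bar. The bars of 7BS (0.692%, 15 loci), 1BL (0.636%, 21 loci) and 7BL (0.478%, 16 loci) are the highest.

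None of the 34 loci of 7B that were described among the most abundant of the study was among the 31. The share over all counted loci of 7B was 0.562%, so this absence is no result about abundant loci. In the median of the 34, the lowest library had 27.4% of the highest. One of them, 7BL-6685401:519-3797, whose description reads glyceraldehyde-3-phosphate cytosolic-like, had 2.19% of its highest value in its lowest library. It had 16623, 21090, 819 and 575 normalized counts in *gpc-A1/gpc-B2* at HD, 1037, 5830, 13187 and 15348 at 12 DAA, and 9389, 1666, 12874 and 11724 at 22 DAA. It had between 493 and 1336 in the 12 *gpc-A1* leaves, 8288, 12111, 748 and 7104 in WT at HD, between 685 and 890 at 12 DAA, and 484, 461, 5912 and 1163 at 22 DAA. The 12 leaves with pattern B on had at least 5830 and the other 24 at most 1666. Its correlation over the 36 libraries was 0.948 with the highest locus of B and -0.874 with that of A. This locus was singled out after its values were seen. It failed the rule because no library was below 50 normalized counts, so that its on level by the rule was its median of 1139 and no library was off.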

How the data were processed

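RNA of 36 flag leaves was sequenced in single reads of 50 bp. According to the methods, the authors used GSNAP to place the reads on the Chinese Spring contigs of both genomes, counted reads with a unique position per locus with HTSeq (versions not given in the sources used here), and took the loci from wheat transcripts mapped to the contigs. They deposited raw counts per locus and library, without normalization, and the positions of the loci. Loci with near-identical copies lost reads to the unique-position filter. Samples were grouped by title. Counts were divided by median-of-ratios size factors over all libraries, the on-off rule was applied with Python 3.11.15, and figures were drawn with matplotlib 3.10.9.

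For DE, loci were kept if 2 or more replicates of any group had over 3 reads, and were tested on the 8 libraries of each pair of groups in R 4.3.3. All 4 tests had to pass: edgeR 4.0.16 (quasi-likelihood, TMM factors) and DESeq2 1.42.0 (in place of the DESeq of the methods), both at a Benjamini-Hochberg adjusted P of 0.01, a two-sided rank test by the normal approximation at 0.05, and the equal-variance test of means of the methods at 0.01, the last 2 on normalized counts. Standard errors were derived from edgeR, as the size of the log2 fold change over the root of its F statistic. Contrasts averaged over time points or genotypes came from 1 edgeR fit of the 36 libraries. Both procedures were tested on simulated data that held no on-off loci, so this check does not cover such loci. The 31 loci, the patterns and the lists were chosen with earlier results of these data known. Values in each library are given for the 8 loci with the highest on level, those called, those with the most and fewest on libraries, and the highest of each pattern. Counting intervals and floors cover counting error only.

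The methods state that the libraries of a replicate number shared sequencing lanes, so the numbers pair samples of different groups. As a check, deviations from group means were correlated. For equal numbers the mean was 0.0152, and 43 of 144 pairs exceeded 0.1. For unequal numbers it was -0.00518, and 114 of 432 did. Alternatives were other limits and scalings of the rule, no filter, a replicate block, other size factors, single tools, 1 fit of all groups, and each replicate number left out.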

Additional observations from a re-analysis of the deposited data

Results flagged for a closer look

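The median level of each pattern was compared between the 4 plants of each of the 9 groups, and 9 of the 54 sets (16.7%) held 1 plant far from the other 3 by Dixon's criterion. Chance alone gives about 1 in 20 for such a criterion, but the loci were chosen for holding both states within a group, so the share found here cannot be read against it. Of these 9, 4 involved a difference in state or level. In *gpc-A1/gpc-B2* at 22 DAA, replicate 2 had pattern A at 79.2% of the on level, against 0.353% to 1.498% in the other plants, and pattern B at 0.0%, against 86.5% to 98.7%. In WT at 22 DAA, replicate 3 had pattern A at 52.9%, against 98.6% to 107%, and pattern B at 47.8%, against 0.103% to 0.518%.

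The other 5 were a few reads in 1 plant beside none in the median of the others, all far below the off limit of 5%. They were pattern B in *gpc-A1* replicate 3 at 12 DAA (0.130%), pattern C in WT replicate 4 at 22 DAA (0.502%), pattern F in *gpc-A1/gpc-B2* replicate 1 at 22 DAA (1.34%), and pattern E in *gpc-A1/gpc-B2* replicate 2 at HD (1.04%) and replicate 1 at 22 DAA (1.32%).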

How the results depend on the processing

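The rule gave 20 loci with an off limit of 2% and 4 with an on limit of 50%, against 31. Other limits and scalings gave 26 to 38, and leaving out each replicate number 31 to 34. The number of DE loci among the 31 in *gpc-A1/gpc-B2* against WT was 5, with edgeR alone 9, with DESeq2 alone 9 and with unequal variances 3, and 1 to 11 with a replicate number left out. In *gpc-A1* against WT it was 0, with DESeq2 alone 3 and with no filter 1. In *gpc-A1/gpc-B2* against *gpc-A1* it was 5, with DESeq2 alone 8 and in a single fit of all groups 0, and 1 to 26 with a replicate number left out. Between times in WT it was 0, with edgeR alone 4 and with DESeq2 alone 6, and 0 to 2 with a number left out. The averaged contrasts called 4 to 7 of the 31 between genotypes and 0 to 2 between times with a number left out, against 9 and 2. Blocking on the replicate number (a replicate block) gave 4 in *gpc-A1/gpc-B2* against WT, 1 in *gpc-A1* against WT, 4 in *gpc-A1/gpc-B2* against *gpc-A1* and 0 between times, and the averaged contrasts called 9 and 2. Of 26 log2 fold changes of called loci, none reversed in any alternative, and 9 to 17 stayed called with a replicate number left out. The cause of these shifts was not tested. The patterns numbered 7 with full agreement and 5 with 33 libraries. The test with unequal variances, leaving out 1 library or those with both large patterns on, were chosen after seeing the data. Counts limit the loci with on levels near 50, where a few reads decide the off limit.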
